A study of Mus musculus with 6 samples.

Results

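The genes described here encode the Prp19 complex and the factors that join it, the helicases that drive the steps of splicing, the factors of the second catalytic step and the proteins of the exon junction. They were 35 genes named by role: 6 of the Prp19 core, 10 Prp19-related and intron-binding factors, 7 helicases, 3 factors of the second step and 9 exon junction proteins. All 35 were among the 24421 symbols of the count table, and all 35 were among the 15584 genes with enough reads to be tested. RNA was sequenced from whole heads of mouse embryos at embryonic day 9.0 (E9.0), in 3 wild-type (WT) and 3 heterozygous (Het, *Snrpb* ncc+/-) pools. The paper's methods count every embryo of the cross that is not mutant as *Snrpb* WT, which can include embryos with an unrecombined floxed allele. *Snrpb* encodes the Sm proteins B and B′, part of the ring that surrounds the RNA of each spliceosomal snRNP. In the Het pools a floxed *Snrpb* allele had lost exons 2 and 3 where the *Wnt1-Cre2* transgene was active, that is in neural tube and in neural crest, and the other cells of the head kept both copies. Each pool held 2 heads matched for somite number and taken from different litters, so the libraries of a group were separate biological pools. The labels give CD1 for the cells and C57BL/6 as strain, and the paper states that the embryos were on a mixed background of both. Whether the WT pools carried the transgene is not given in the sources used here.

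Splicing proceeds through a series of rearrangements. U1, U2 and the U4/U6.U5 tri-snRNP assemble on the intron, and the Prp19 complex then joins and holds the RNA core of the spliceosome in its active form. Helicases of the DEAD and DEAH families use ATP to push the machine from each stage to the next, up to release of the mRNA and the lariat. While exons are joined, the exon junction complex is deposited upstream of the new junction, where it marks the mRNA for export, translation and surveillance. In the developing head these proteins are made in every cell type, and several exon junction genes are known for their dosage sensitivity in neural crest cells and neural progenitors.

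Reads assigned to genes totalled 36378803 to 58946111 in the WT libraries and 42398206 to 74909774 in the Het libraries. Levels are given as CPM, the reads of a gene scaled to a common library total after correction by the trimmed mean of M-values (TMM). *Snrpb* itself lay at 429.9, 438.2 and 414.2 CPM in WT and at 436.5, 412.4 and 430.3 CPM in Het (log2 fold change -0.00, 95% interval -0.09 to 0.09). The groups overlapped, and the gene count also takes in exons outside the deleted ones and cells without Cre activity, so it does not check the genotype. Head, neural tube and neural crest markers were present in all 6 libraries. The 5 neural tube markers summed to 598.7, 498.9 and 521.7 CPM in WT and to 491.3, 487.8 and 490.7 CPM in Het. All 3 Het libraries lay below all 3 WT libraries, as was the case for 6.92% of single tested genes. Sums of the head markers (196.6 to 248.9 CPM in WT and 192.1 to 223.8 CPM in Het) and of the neural crest markers (236.8 to 310.5 and 269.2 to 296.2 CPM) overlapped, and the 5 posterior Hox genes summed to at most 0.22 CPM. Pools differed in the sex of their embryos: the 4 Y-linked genes summed to 62.8 to 120.0 CPM in WT and 111.0 to 228.3 CPM in Het, and *Xist* lay at 0.37 CPM in Het replicate 2 against 65.0 to 154.6 CPM in the other 5. Cardiac markers summed to 6.34 to 50.3 CPM in WT and 20.4 to 84.5 CPM in Het, erythroid markers to 872 to 1485 and 882 to 1206 CPM, and visceral endoderm markers to 0.89 to 10.1 and 0.90 to 2.39 CPM. The part of these differences in the results was not tested. In bulk samples, fewer cells of a type and less RNA per cell cannot be told apart.

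The comparison of WT with Het pools asked whether loss of an *Snrpb* copy in these tissues came with altered expression of other parts of the spliceosome. Levels of most of the 35 genes differed little between genotypes. With edgeR's quasi-likelihood test and Benjamini-Hochberg adjustment over all 15584 genes, 0 of the 35 passed an adjusted *P* of 0.05, against 0.00642% of all tested genes (1 gene). At an unadjusted *P* under 0.05, 1 of the 35 was higher in Het (*Dhx38*), against 4.34% of all tested genes, and 0 were lower, against 4.09%. DESeq2, the tool named in the study's methods, called 1 of the 35 (*Dhx38*), against 0.651% of the 12908 genes it adjusted. The median log2 fold change was 0.02 over the 35 genes and 0.00 over all tested genes, with 23 positive and 12 negative values.

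The intervals were narrow. For 30 of the 35 genes the whole 95% interval of the log2 fold change lay within 0.2 of zero, a fold of 1.15 in either direction, and the same held for 5121 of the 15584 tested genes. The exceptions were the helicase *Dhx38* and the exon junction genes *Magohb*, *Srrm1*, *Srrm2* and *Cwc22*. All 6 Prp19 core genes, all 10 related factors and all 3 second-step factors lay within it, as did 6 of 7 helicases and 5 of 9 exon junction genes. The median half-width of the interval was 0.11 for the 35 genes, 0.10 for the 89 other spliceosome genes tested and 0.20 for all tested genes. The 35 genes had at least 415 counts in each library, so the depth was higher than for many tested genes.

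**Figure D1:**
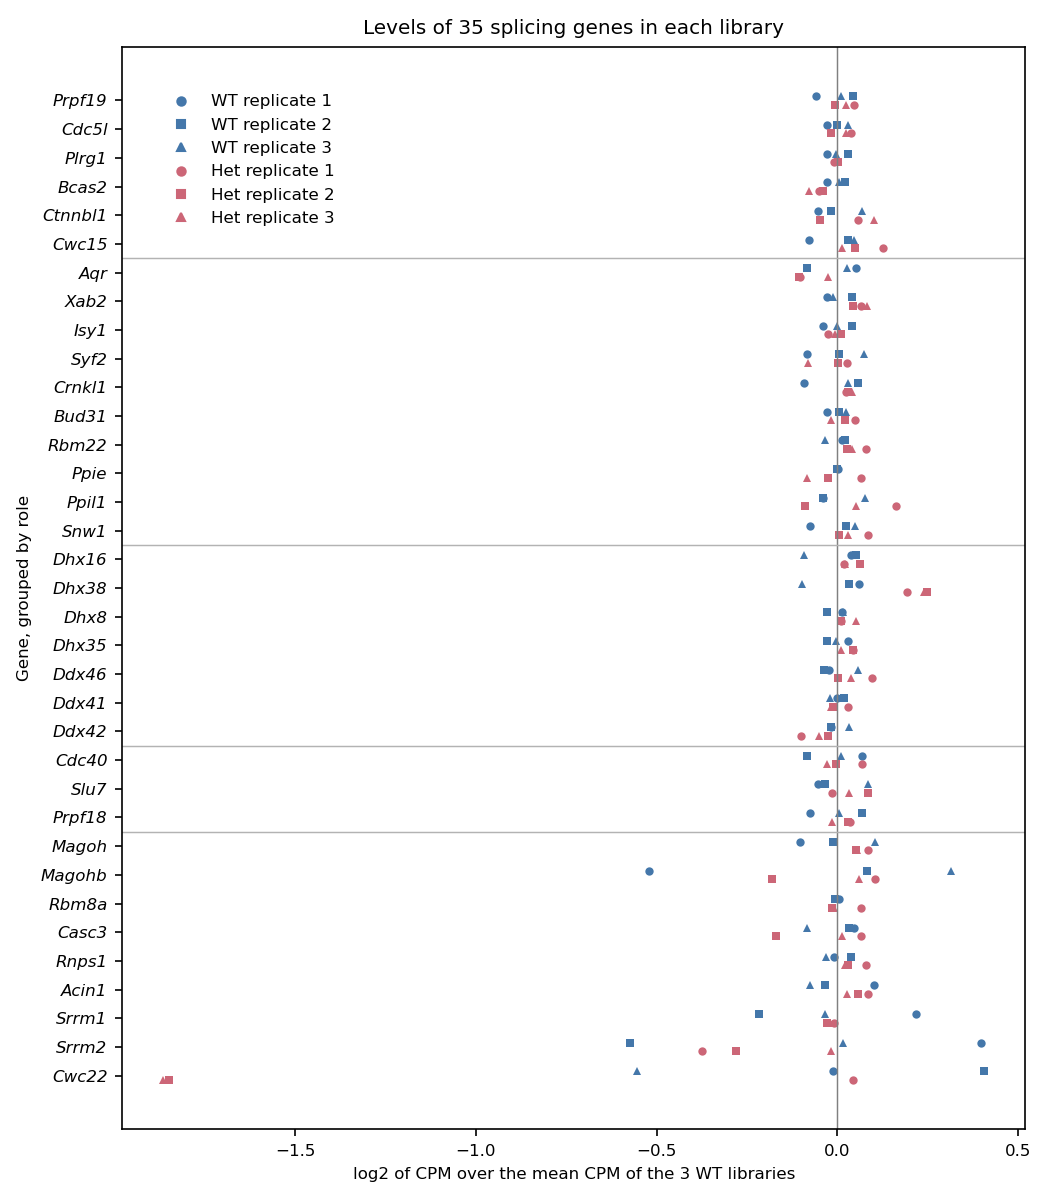
Level of each of the 35 genes in each library, as the log2 of its CPM over the mean CPM of the 3 WT libraries (x axis), with genes on the y axis in 5 blocks by role (Prp19 core, related factors, helicases, second-step factors, exon junction). Blue symbols are WT and red symbols Het libraries, and the symbol's shape gives the replicate; most genes form a tight column around 0, whereas *Magohb*, *Srrm1*, *Srrm2* and *Cwc22* spread widely and *Dhx38* has its 3 Het libraries to the right of its 3 WT libraries.

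**Figure D2:**
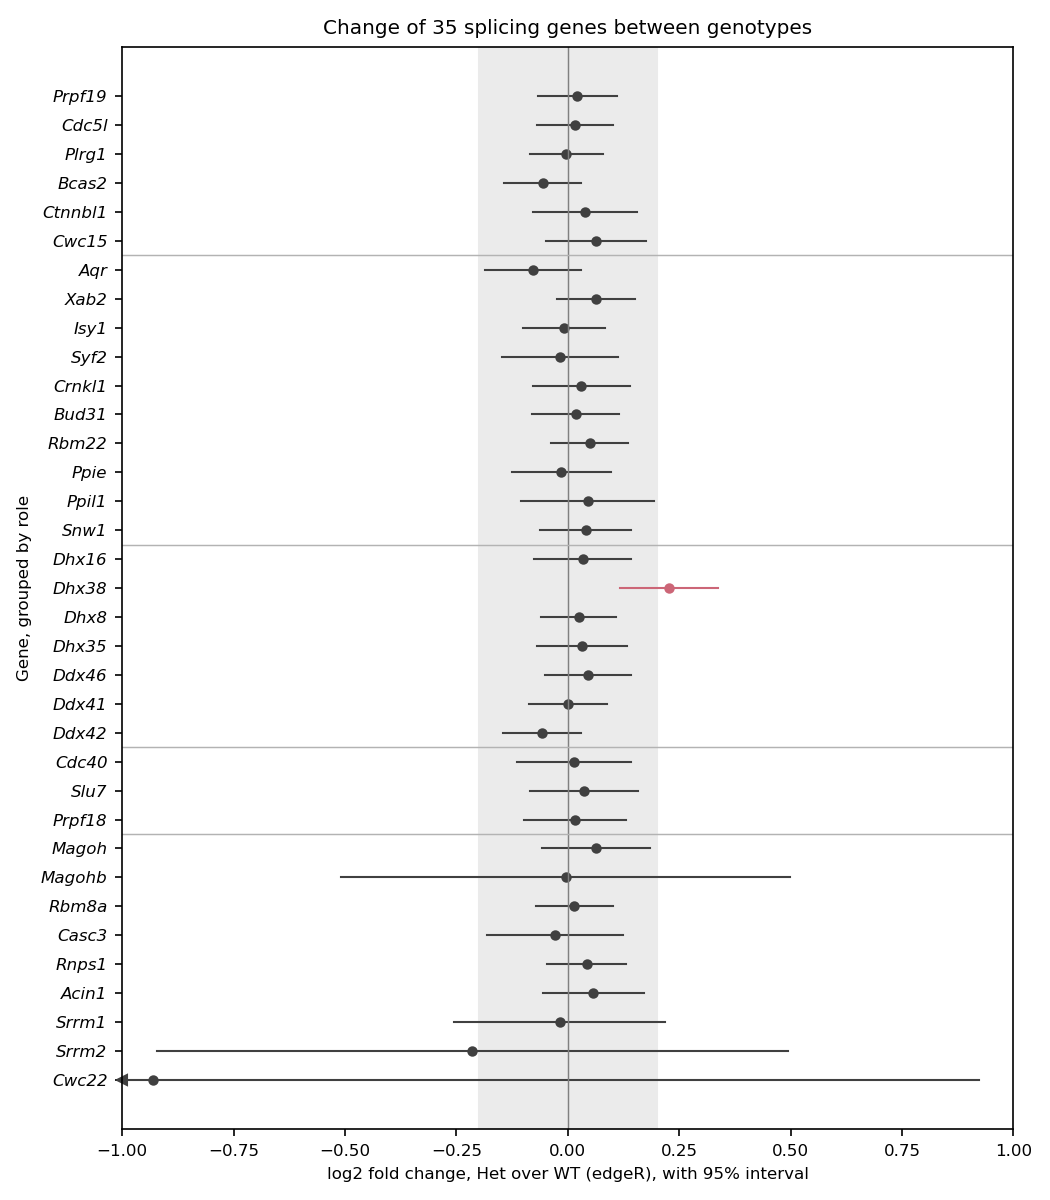
Log2 fold change of each gene, Het over WT, from edgeR (x axis, points) with its 95% interval (lines), genes grouped by role as separated by the grey lines. The shaded band spans 0.2 on either side of zero, red marks the gene with an unadjusted *P* under 0.05, *Dhx38*, and the arrowhead shows that the interval of *Cwc22* runs beyond the axis to -2.78.

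The Prp19 core was at even levels in the 6 libraries. *Prpf19*, the ubiquitin ligase that gives the complex its name, lay at 360.9, 387.3 and 378.3 CPM in WT and 387.9, 373.8 and 381.7 CPM in Het. Its log2 fold change was 0.02 (95% interval -0.07 to 0.11), and the groups overlapped. *Cdc5l*, a Myb-related core subunit, lay at 143.7, 146.4 and 149.5 CPM in WT and 150.5, 144.9 and 149.0 CPM in Het. *Plrg1*, a WD-repeat subunit that binds *Cdc5l*'s product, ranged only from 143.7 to 149.5 CPM over all 6 libraries. Its spread, an SD of 0.019 on the log2 scale, was smaller than that of all but 0.3% of tested genes. *Bcas2*, another core subunit, lay at 96.8, 100.3 and 99.1 CPM in WT and 95.3, 96.0 and 93.5 CPM in Het. All 3 Het libraries were below the WT libraries, by a small amount, with a log2 fold change of -0.06 (95% interval -0.14 to 0.03; adjusted *P* = 0.715 with edgeR). *Ctnnbl1* and *Cwc15*, which bind the complex, had log2 fold changes of 0.04 and 0.06, with overlapping groups and intervals from -0.08 to 0.16 and from -0.05 to 0.17. *Cwc15* lay at 92.2, 99.2 and 100.4 CPM in WT and 106.2, 100.6 and 98.2 CPM in Het (adjusted *P* = 0.758 with edgeR).

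The 10 Prp19-related and intron-binding factors had log2 fold changes of -0.08 to 0.06, with overlapping groups except for *Xab2* and *Rbm22*. *Aqr*, the intron-binding helicase aquarius, lay at 158.6, 144.4 and 156.0 CPM in WT and 142.4, 142.2 and 150.2 CPM in Het. Its log2 fold change of -0.08 (95% interval -0.18 to 0.03; adjusted *P* = 0.685 with edgeR) was the third lowest of the 35, and WT replicate 2 lay within the range of the Het libraries. *Xab2*, which joins the same intron-binding complex, lay at 100.5, 105.4 and 101.7 CPM in WT and at 107.2, 105.6 and 108.5 CPM in Het. All 3 Het libraries of *Xab2* lay above all 3 WT libraries, the nearest by a narrow margin, with a log2 fold change of 0.06 (95% interval -0.03 to 0.15; adjusted *P* = 0.690 with edgeR). *Rbm22*, whose product contacts the U6 snRNA near the active site, lay at 116.5, 117.1 and 112.7 CPM in WT and at 122.0, 117.5 and 118.9 CPM in Het. The groups did not overlap, and the log2 fold change was 0.05 (95% interval -0.04 to 0.14; adjusted *P* = 0.758 with edgeR).

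*Isy1* and *Ppie*, further partners of the intron-binding complex, had log2 fold changes of -0.01 each. *Syf2* and *Crnkl1*, which stand beside *Cdc5l*'s product in the spliceosome, had -0.02 and 0.03, and *Bud31* had 0.02. *Snw1* (SKIP), a scaffold that is also a transcriptional coregulator, had 0.04. *Ppil1*, a peptidyl-prolyl isomerase, had the widest interval of the 10 factors, -0.11 to 0.19 around 0.04, with values of 114.5, 114.6 and 124.0 CPM in WT and 131.7, 110.6 and 122.1 CPM in Het. Het replicate 1 was its highest library and Het replicate 2 its lowest.

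The 7 helicases carry the box that names their family, and the coding bases around it are shown to set the DEAH members beside the DEAD members. Each stretch has 48 bases, read from Gencode M21 transcripts on mm10 and written 5′ to 3′ on the coding strand, and capitals mark the codons of the box.
*Dhx16* (chr17:35884131-35885537, + strand, across an intron): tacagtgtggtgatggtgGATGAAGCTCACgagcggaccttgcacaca
*Dhx38* (chr8:109556047-109556094, - strand): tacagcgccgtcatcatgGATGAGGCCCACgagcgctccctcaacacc
*Dhx8* (chr11:101752122-101752169, + strand): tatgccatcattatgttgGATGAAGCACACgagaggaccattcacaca
*Dhx35* (chr2:158817420-158818304, + strand, across an intron): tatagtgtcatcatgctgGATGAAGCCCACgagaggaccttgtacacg
*Ddx46* (chr13:55660740-55660787, + strand): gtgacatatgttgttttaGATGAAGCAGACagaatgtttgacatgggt
*Ddx41* (chr13:55533038-55533085, - strand): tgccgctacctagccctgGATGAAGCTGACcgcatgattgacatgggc
*Ddx42* (chr11:106238556-106238603, + strand): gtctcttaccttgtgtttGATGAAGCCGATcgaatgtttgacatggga
The capitals spell the residues DEAH in *Dhx16*, *Dhx38*, *Dhx8* and *Dhx35* and DEAD in *Ddx46*, *Ddx41* and *Ddx42*. The box begins at residue 653 of 1228 in *Dhx38*, 523 of 1044 in *Dhx16* and 709 of 1244 in *Dhx8*. In each of the 7 proteins the box was found once.

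*Dhx38* encodes PRP16, the helicase that remodels the spliceosome after the first catalytic step. It lay at 131.1, 128.4 and 117.3 CPM in WT and at 143.6, 149.2 and 148.2 CPM in Het. All 3 Het libraries were above all 3 WT libraries, and the gap between the groups, from 131.1 to 143.6 CPM, was close to the range within WT. The mean was 125.6 ± 7.32 CPM in WT and 147.0 ± 2.99 CPM in Het (SD, n = 3 each), a log2 fold change of 0.23 (SE 0.05, 95% interval 0.12 to 0.34), or 1.17-fold. This was the highest of the 35 values. The adjusted *P* was 0.309 with edgeR, and 0.0366 with DESeq2 at a log2 fold change of 0.22. With each library left out in turn the edgeR estimate stayed between 0.18 and 0.25, and with the Y-linked level added to the model it was 0.17 (adjusted *P* = 0.999). In that edgeR fit 0 genes were called over all genes, and *Prpf19* too had an adjusted *P* of 0.999. *Dhx38* kept an unadjusted *P* under 0.05 there. The gene is singled out for its values in these same libraries, so the separation of its groups and these refits add no support. No other gene overlaps *Dhx38* (chr8:109548011-109565861, mm10) in the annotation, and no other transcript matched its coding sequence.

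The other 6 helicases did not show such a separation upwards. *Dhx16* (PRP2), which acts before the first step, lay at 94.5, 95.3 and 86.3 CPM in WT and 93.2, 96.1 and 93.4 CPM in Het. *Dhx8* (PRP22), which releases the spliced mRNA, lay at 134.8, 130.9 and 135.2 CPM in WT and 134.5, 134.7 and 138.6 CPM in Het. The log2 fold changes of *Dhx16* and *Dhx8* were 0.03 (95% interval -0.08 to 0.14) and 0.03 (95% interval -0.06 to 0.11). *Dhx35*, found in late spliceosomes, had a log2 fold change of 0.03, *Ddx46* (PRP5), which acts when U2 binds the branch site, 0.05, and *Ddx41* 0.00. *Ddx42*, a U2-associated helicase, lay at 193.8, 193.6 and 200.6 CPM in WT and 182.9, 192.7 and 189.2 CPM in Het. All 3 Het libraries were below the WT libraries, and the log2 fold change was -0.06 (95% interval -0.14 to 0.03; adjusted *P* = 0.711 with edgeR).

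Of all 35 genes, the groups did not overlap for 3 that were higher in Het (*Xab2*, *Rbm22* and *Dhx38*), against 8.32% of all tested genes, and for 2 that were lower (*Bcas2* and *Ddx42*), against 6.92%. These shares are near the background. Outside the list, the helicases *Dhx15* (PRP43), which takes the lariat spliceosome apart, *Ddx23* (PRP28), which displaces U1, and *Snrnp200* (BRR2), which unwinds U4 from U6, had log2 fold changes of 0.08, 0.06 and -0.15, with adjusted *P* values of 0.606, 0.687 and 0.635 in edgeR. The groups of *Dhx15* and *Ddx23* did not overlap, with all Het libraries above WT, and those of *Snrnp200* overlapped.

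The 3 factors of the second catalytic step did not differ beyond their spread. *Cdc40* (PRP17) lay at 37.4, 33.7 and 35.9 CPM in WT and 37.4, 35.6 and 34.99 CPM in Het. *Slu7*, which helps to select the 3′ splice site, lay at 56.3, 57.1 and 61.9 CPM in WT and 57.9, 62.0 and 59.7 CPM in Het. *Prpf18* lay at 52.2, 57.7 and 55.3 CPM in WT and 56.5, 56.2 and 54.5 CPM in Het. The groups overlapped for all 3, with log2 fold changes of 0.01, 0.04 and 0.02 and intervals within -0.11 and 0.16.

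The core of the exon junction complex is formed by *Eif4a3*, the MAGOH and RBM8A heterodimer and *Casc3*. Mouse has a pair of MAGOH genes, *Magoh* and *Magohb*, whose coding sequences are shown at their longest identical run because a longer read differs between them. Capitals mark the 17 shared bases, and both stretches cross an intron.
*Magoh* (chr4:107883176-107884978, + strand): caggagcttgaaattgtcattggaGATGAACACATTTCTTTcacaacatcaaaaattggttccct
*Magohb* (chr6:131285664-131288038, - strand): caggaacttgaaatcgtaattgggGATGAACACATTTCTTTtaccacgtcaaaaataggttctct
The coding sequences were identical at 356 of 438 aligned bases (81.3%), with no longer shared run in the whole transcripts, whereas 145 of 146 aligned residues were identical.

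*Magoh* lay at 111.3, 118.7 and 128.7 CPM in WT and 126.8, 123.9 and 124.2 CPM in Het, with a log2 fold change of 0.06 (95% interval -0.06 to 0.18). *Magohb* lay at 11.4, 17.3 and 20.4 CPM in WT and at 17.6, 14.4 and 17.1 CPM in Het. WT replicate 1 was the lowest library for both genes and WT replicate 3 the highest, so the Het values fell within the WT range for both. The log2 fold change of *Magohb* was -0.00 with a wide interval, -0.51 to 0.50. *Magohb* took 9.29%, 12.7% and 13.7% of the summed counts of the pair in WT and 12.2%, 10.4% and 12.1% in Het. The means were 11.9% ± 2.30 and 11.6% ± 0.98 (SD, n = 3 each), a difference of -0.32 percentage points (*P* = 0.8, two-sided exact permutation test, in which 3 against 3 libraries cannot go below 0.1). Per kb of exon the share was 5.71% ± 1.17 in WT and 5.53% ± 0.50 in Het.

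*Rbm8a*, the partner of MAGOH, lay at 176.1, 174.8 and 175.4 CPM in WT and 183.7, 173.6 and 174.5 CPM in Het. Its log2 fold change was 0.01 (95% interval -0.07 to 0.10), and Het replicate 2 and Het replicate 3 lay just below the WT libraries. *Rbm8a2*, a copy similar to *Rbm8a* over the length of its coding sequence (at least 95% identity), has no symbol in the count table. How its reads were assigned is not known. *Casc3*, the cytoplasmic subunit, lay at 71.6, 70.9 and 65.4 CPM in WT and 72.5, 61.6 and 69.9 CPM in Het, with overlap and a log2 fold change of -0.03 (95% interval -0.18 to 0.12). *Eif4a3*, the helicase that clamps the complex on RNA and no member of the list, lay at 295.8, 315.2 and 305.7 CPM in WT and 331.2, 309.8 and 326.7 CPM in Het. Its log2 fold change was 0.08 (95% interval -0.02 to 0.17; adjusted *P* = 0.658 with edgeR). *Wibg* (PYM1), which removes the complex during translation, had -0.07 (adjusted *P* = 0.757 with edgeR).

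*Rnps1*, a subunit of the ASAP and PSAP complexes at the junction, and *Acin1*, a subunit of ASAP, had log2 fold changes of 0.04 and 0.06. *Acin1* lay at 269.9, 245.6 and 238.7 CPM in WT and at 266.6, 261.6 and 256.4 CPM in Het, with the highest value in WT replicate 1. *Srrm1* and *Srrm2*, serine- and arginine-rich coactivators, varied within WT. *Srrm1* lay at 108.2, 80.0 and 90.7 CPM in WT and at 92.4, 91.2 and 91.6 CPM in Het, and *Srrm2* at 523.4, 267.4 and 402.0 CPM in WT and at 307.0, 327.6 and 392.9 CPM in Het. Both genes had their highest value in WT replicate 1 and their lowest in WT replicate 2, and all 3 Het libraries fell between. The log2 fold change was -0.02 for *Srrm1* (95% interval -0.25 to 0.22) and -0.21 for *Srrm2* (95% interval -0.92 to 0.49; adjusted *P* = 0.870 with edgeR). Without WT replicate 1 the value for *Srrm2* was 0.03, and without WT replicate 2 it was -0.43. *Prpf8*, the scaffold at the heart of the spliceosome, named here after its values were seen, had the same high and low WT libraries. *Prpf8* lay at 754.5, 528.4 and 679.6 CPM in WT and 554.2, 586.2 and 707.9 CPM in Het. How many other genes had this order of the WT libraries is not given here.

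*Cwc22*, which brings EIF4A3 to the spliceosome, varied most. It lay at 301.4, 402.9 and 207.1 CPM in WT and at 313.0, 84.3 and 83.4 CPM in Het. Het replicate 1 lay within the WT range, whereas Het replicates 2 and 3 lay at less than 100 CPM, below every WT library. The highest library was 4.83-fold above the lowest, and the SD on the log2 scale, 0.99, was larger than in 99.3% of tested genes. The fold change could not be fixed: its log2 value was -0.93 (SE 0.69, 95% interval -2.78 to 0.92; adjusted *P* = 0.765 with edgeR). Without Het replicate 1 it was -1.86 (adjusted *P* = 0.481), and without Het replicate 2 or Het replicate 3 it was -0.62 in both cases. The lowest library held 5544 counts of the gene.

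*Cwc22* lies at chr2:77881159-77946375 (mm10, minus strand). *Ube2e3*, the nearest tested gene on the side of higher coordinates, at chr2:78868124-78921293, lay at 131.1, 136.0 and 136.7 CPM in WT and 133.5, 136.2 and 137.0 CPM in Het and did not share the range of *Cwc22*. *Zfp385b*, the nearest on the other side, lay at 0.38 to 0.81 CPM and is too low to compare. Gencode M21 places 7 further protein-coding genes with a near copy of the *Cwc22* coding sequence at chr2:83955693-83993045, each identical at 96.9% of 2514 aligned bases. None of the 7 has a symbol in the count table, so how their reads were assigned is not known. The segment that holds *Cwc22* is known to vary in copy number among mouse strains. The paper gives a mixed strain background for the embryos, and copy number was not measured in these pools.

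**Figure D3:**
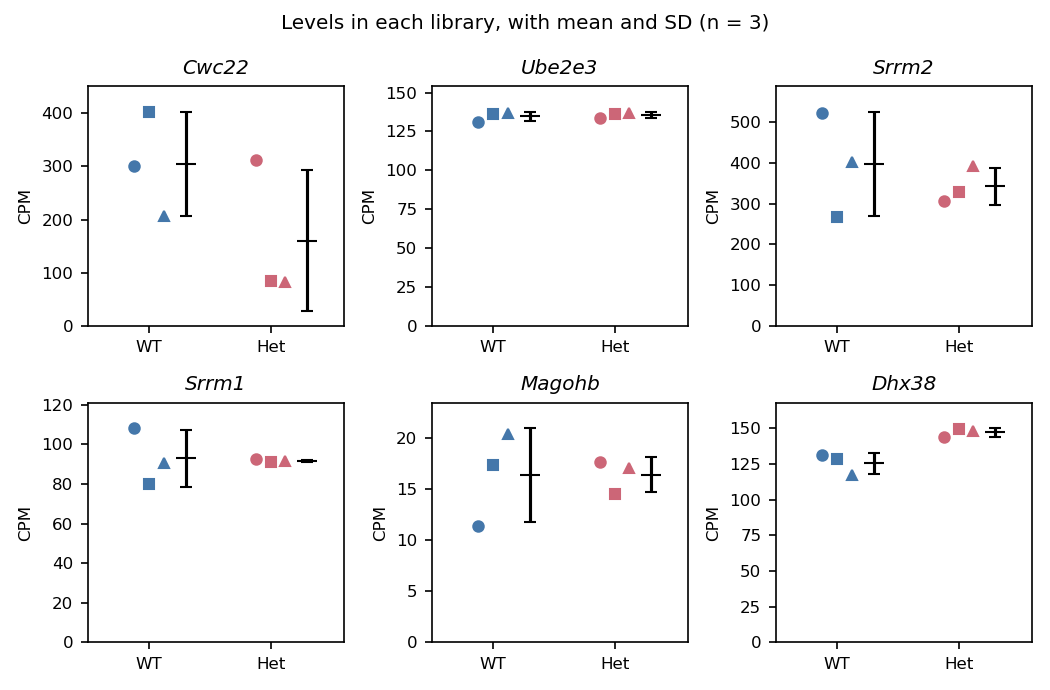
Levels in CPM (y axes, each starting at 0) in the 3 WT (blue) and 3 Het (red) libraries, with shapes for replicates 1 (circle), 2 (square) and 3 (triangle) and black bars for the mean and SD of each group (n = 3), for the 5 widest-ranging genes and *Ube2e3*, a neighbour of *Cwc22*. *Cwc22* ranges from 83.4 to 402.9 CPM while *Ube2e3* stays between 131.1 and 137.0 CPM, and only in the *Dhx38* panel do the Het libraries all lie above the WT libraries.

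Apart from these genes, the group was even from pool to pool. The SD of log2 CPM over the 6 libraries had a median of 0.054 for the 35 genes, 0.058 for the 89 other spliceosome genes tested and 0.112 for all tested genes. It was smaller than the median gene's in 30 of the 35, and 14 of the 35 were among the lowest 10% of tested genes. In 30 of the 35 the highest library was less than 1.2 times the lowest, and the other 5 were *Dhx38*, *Srrm1*, *Magohb*, *Srrm2* and *Cwc22*. These SDs fall as levels rise, and the 35 genes had mean WT levels from 16.4 CPM (*Magohb*) to 397.6 CPM (*Srrm2*), so the comparison with all genes is in part one of level.

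**Figure D4:**
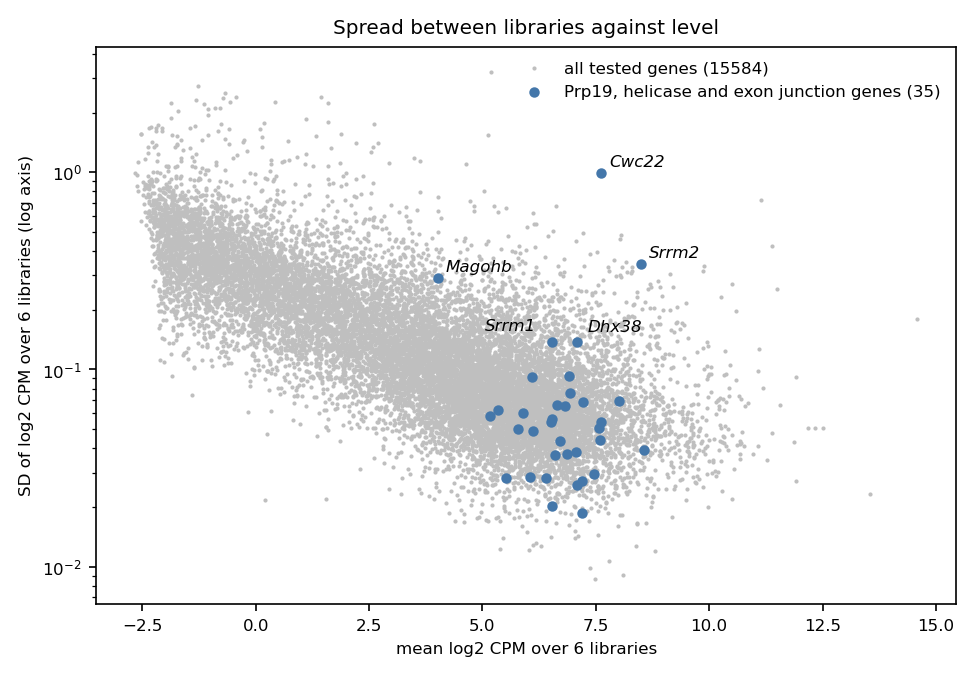
SD of log2 CPM over the 6 libraries (y axis, log scale) against mean log2 CPM (x axis) for the 15584 tested genes (grey) and the 35 genes (blue). The 35 genes lie in the lower right of the cloud, except *Cwc22*, *Srrm2* and *Magohb*, which lie above 0.2, and *Srrm1* and *Dhx38*, which lie near 0.14.

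Set per kb of exon, which allows levels of different genes to be compared, *Magoh* was the highest of the 35 in WT, at 155 ± 11.3 CPM per kb (SD, n = 3). *Cwc15* followed at 61.9 ± 2.84, and *Rbm8a*, *Plrg1* and *Prpf19* at 54.6 ± 0.20, 52.0 ± 1.05 and 51.6 ± 1.85 CPM per kb. The last 2 differed by less than their spread. The lowest were *Cdc40* at 4.35 ± 0.23, *Dhx35* at 8.76 ± 0.17 and *Magohb* at 9.51 ± 2.65 CPM per kb. Exon length here is the union over annotated transcripts, so a gene with long and rarely used exons is understated, and levels of the partners *Magoh* and *Rbm8a* are to be read with that limit. Among the helicases the order was *Ddx42* at 46.4 ± 0.95, *Ddx41* at 34.4 ± 0.45, *Dhx8* at 26.6 ± 0.47, *Ddx46* at 25.8 ± 0.91, *Dhx38* at 25.3 ± 1.47, *Dhx16* at 22.5 ± 1.22 and *Dhx35* at 8.76 ± 0.17 CPM per kb. *Dhx8*, *Ddx46* and *Dhx38* did not differ beyond their spread.

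Some of the 35 counts may hold reads of other genes. *Cdc5l*, *Xab2*, *Crnkl1*, *Bud31*, *Ppie*, *Snw1*, *Casc3* and *Acin1* overlap a gene of the table on the opposite strand, and *Casc3* also overlaps *Msl1* on its own strand. *Aqr*, *Acin1* and *Srrm2* each overlap a microRNA gene of the table on their own strand (*Mir7002*, *Mir6948* and *Mir5125*). Some of the 35 also overlap annotated genes without a symbol of that name in the table, among them *Elob* for *Srrm2* and *Gm13727* for *Cwc22*. Other annotated genes match at least 95% of a stretch of the transcript for *Prpf19*, *Isy1*, *Rnps1*, *Ddx41* and *Srrm2* (1 gene each) and for *Cdc5l* (10 genes), none of which has a symbol in the table. How such reads were assigned is not given in the sources used here, and values of these genes are uncertain to that extent. *Dhx38*, *Magoh* and *Magohb* have neither an overlap with a gene of the table nor such a copy.

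The remaining spliceosome was counted alongside, from a list of 90 genes of the U1, U2 and U4/U6.U5 snRNPs, the Sm and LSm rings, other factors and exon junction partners. Of the 89 tested, 0 passed the adjusted *P* with edgeR. At an unadjusted *P* under 0.05, 9 of the 89 were higher in Het (10.1%, against 4.34% of all tested genes) and 5 lower (5.62%, against 4.09%). The groups did not overlap for 16 that were higher (17.98%, against 8.32%) and 8 that were lower (8.99%, against 6.92%). The whole interval lay within 0.2 of zero for 65 of the 89, against 5121 of the 15584 tested genes. DESeq2 called 4 of the 89 (4.49%, against 0.651% of all genes it adjusted): *Prpf39*, a U1-associated factor, *Snrpa1*, the U2 protein A′, *Prpf3*, a tri-snRNP protein, and *Sf3b3*, an SF3b subunit of U2. *Prpf39* lay at 56.6, 59.1 and 57.3 CPM in WT and at 68.7, 77.2 and 74.8 CPM in Het (log2 fold change 0.35, 95% interval 0.23 to 0.47; adjusted *P* = 0.182 with edgeR and 9.11e-05 with DESeq2). *Snrpa1* and *Prpf3* were likewise higher, with log2 fold changes of 0.24 and 0.28, and *Sf3b3* was lower, at -0.22, with adjusted *P* values of 0.235, 0.309 and 0.309 in edgeR and 0.00385, 0.0144 and 0.0227 in DESeq2. The groups of these 4 did not overlap, but the 4 were picked by DESeq2 on the same libraries, so this adds no support.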

How the data were processed

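RNA from heads of E9.0 embryos was sequenced in 6 libraries, 3 per genotype. The authors aligned reads with STAR (build mm10) and deposited unnormalized read counts, 1 whole number per gene symbol and library. The paper names HTSeq and Gencode M2 for the counting, the submitters' processing notes name featureCounts, and neither gives the strand setting, so reads of overlapping genes may be shared. Depth, as the sum of the gene counts in a library, was 36378803 to 74909774; reads outside genes are not in it.

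Genes were tested on the deposited counts by the robust quasi-likelihood method of edgeR 4.0.16 in R 4.3.3 (two-sided, genotype as the only term, TMM scaling, low genes removed with filterByExpr), adjusted over all 15584 tested genes at 0.05. The filter left out 8837 of 24421 symbols. The common biological coefficient of variation was 0.087. DESeq2 (version 1.42.0) was the alternative tool. The replicate numbers were taken as names: deviations of same-numbered libraries correlated at 0.03 to 0.36, above 0.1 for numbers 1 and 3 but not for number 2. Coordinates and sequences came from Gencode M21, in which 23376 symbols were matched, and similar transcripts were sought with BLAST (version 2.17.0; at least 95% identity over 100 bases). Spread was measured on log2 CPM with a prior count of 2. Scripts were tested on simulated data.

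The 35 genes and the other lists were chosen with earlier results of these data known. Among the 35, values were given in full for genes called with edgeR or DESeq2, the 3 highest and 3 lowest log2 fold changes, genes whose groups did not overlap, and genes picked by role. Some genes outside the 35 were given without library values.

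Alternatives were DESeq2 itself or its size factors, plain library sizes, no filter or a minimum of 10 counts per library, a block for the replicate number, a covariate for the Y-linked level, and removal of 1 library at a time.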

Additional observations from a re-analysis of the deposited data

How the results depend on the processing

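The 35 genes had a median log2 fold change of 0.004 to 0.029 under the 13 alternatives, within 1 SD (0.021) of the reported value, and the median of all genes moved by at most 0.012. No alternative but DESeq2, which called 1 (*Dhx38*), called any of the 35 genes. Over all genes, 84 were called with DESeq2, 11 with no filter, 0 with the Y-linked covariate and 0 to 6 with a library left out. Of the other spliceosome genes, 4 were called with DESeq2, 1 with no filter (*Prpf39*) and 0 with a library left out. With the replicate block, 1 gene was called, 0 of the 35, and their median was 0.018. The same-numbered libraries were not paired by the labels, and 4 of the 6 libraries correlated best with their own number. The Het numbers come from the sample titles, and the headers of the counts number the Het libraries differently. The difference in the *Magohb* share ran from -1.63 to 0.56 percentage points with a library left out.

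Signs changed for 18 genes, none of them called, and the cause was not tested beyond the settings named. *Ddx41* had -0.0047 with DESeq2, -0.0041 with DESeq2 size factors and -0.019 with the Y-linked covariate. With library size in place of TMM, *Plrg1* had 0.0084, *Isy1* 0.0035 and *Magohb* 0.0073. *Magohb* had 0.016 with the replicate block. With the Y-linked covariate, *Dhx16* had -0.044, *Prpf18* -0.017, *Magohb* 0.255, *Srrm1* 0.011 and *Srrm2* 0.041. With a library left out, the log2 fold change ran from -0.010 to 0.045 for *Prpf19*, -0.0023 to 0.030 for *Cdc5l*, -0.021 to 0.013 for *Plrg1*, -0.032 to 0.013 for *Isy1*, -0.061 to 0.020 for *Syf2*, -0.017 to 0.062 for *Crnkl1*, -0.00047 to 0.030 for *Bud31*, -0.055 to 0.016 for *Ppie*, -0.017 to 0.107 for *Ppil1*, -0.011 to 0.060 for *Dhx16*, -0.015 to 0.010 for *Ddx41*, -0.027 to 0.045 for *Cdc40*, -0.024 to 0.053 for *Prpf18*, -0.206 to 0.174 for *Magohb*, -0.012 to 0.028 for *Rbm8a*, -0.076 to 0.038 for *Casc3*, -0.117 to 0.101 for *Srrm1* and -0.433 to 0.031 for *Srrm2*.

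The fewest counts were those of *Magohb*, 415 in its lowest library. With 3 pools a group, the spread between pools set the precision, and the intervals bound changes in whole heads only: cells with an intact *Snrpb* locus were part of each pool.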
